A study of Mus musculus with 8 samples.

Results

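The subject is the inhibin and activin system of ovarian granulosa cells, taken as 9 genes: Inha, Inhba and Inhbb, which encode the subunits of the hormones, Fst and Fstl3, which encode proteins that bind activin, and Acvr1b, Acvr2a, Acvr2b and Tgfbr3, which encode receptors. The genes were chosen by name, with earlier results of these data known. Each of the 9 had a row among the 35087 rows that carry a gene name. Granulosa cells, the somatic cells around the oocyte, were cut from follicles on mouse ovary cryosections by laser microdissection. Their polyadenylated RNA was amplified with the Smart-seq2 method and sequenced.

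The cKO group (n = 2 libraries) came from Hif1aflox/flox; Foxl2-CreERT2 females and the WT group (n = 6 libraries) from Hif1aflox/flox females without Cre. Both groups therefore carried Hif1a alleles flanked by loxP sites, and the Cre was a tamoxifen-inducible form expressed from Foxl2, a granulosa cell gene. From 3 weeks of age the mice received tamoxifen at 100 mg/kg on 5 days, and their ovaries were collected once 7 days had passed. For cKO the genotype label reads knockdown. Groups follow the titles and genotypes, although the description gives every library, WT included, a name starting with cKO. The labels give neither the animal nor the follicle stage of a library, so p-values measure only the spread between these libraries and are too small where libraries share an animal.

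Inhibin is a dimer of the alpha subunit (Inha) with a beta subunit (Inhba or Inhbb), and activin is a dimer of beta subunits alone. Activin binds a type II receptor (Acvr2a or Acvr2b), which recruits the type I receptor Acvr1b, and the signal passes through SMAD2 and SMAD3. Follistatin (Fst) and the related Fstl3 bind activin and keep it from its receptors. Inhibin competes for the type II receptors, aided by the co-receptor betaglycan (Tgfbr3). Granulosa cells are the main ovarian source of inhibin, which lowers secretion of follicle-stimulating hormone by the pituitary.

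Depth was from 651426 to 2054584 reads on named genes in cKO and from 1594803 to 4719293 in WT. A count of 3 reads, the limit that a count of 0 allows, was from 1.52 to 4.10 CPM (read counts scaled to library size with TMM factors) in cKO and from 0.655 to 1.65 CPM in WT, which covers counting error only. Genes with at least 5 reads numbered 12847 and 12120 in cKO and from 13597 to 14727 in WT, so the groups did not overlap in this number. The targeted gene, Hif1a, had 22.3 and 13.7 CPM in cKO, below each WT library (35.5 to 106.2 CPM), and its log2 fold change, cKO over WT, was -1.84 with an SE of 0.58 (edgeR adjusted p = 0.369). Each of the 11 granulosa markers looked for, Foxl2, Fshr and Amhr2 among them, had reads in all 8 libraries.

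The beta subunit genes differed in how far they varied between libraries, and the bases before their transcription starts are shown for that reason. The sequences are RefSeq's, on GRCm38.p6, as 250 bases that end just before the start, 5′ to 3′ on the strand of the gene. Inhba lies at chr13:16011601-16011850 on the plus strand and Inhbb at chr1:119422249-119422498 on the minus strand. Capitals mark a match to the HIF1 core GCGTG, here read on the opposite strand.
Inhba: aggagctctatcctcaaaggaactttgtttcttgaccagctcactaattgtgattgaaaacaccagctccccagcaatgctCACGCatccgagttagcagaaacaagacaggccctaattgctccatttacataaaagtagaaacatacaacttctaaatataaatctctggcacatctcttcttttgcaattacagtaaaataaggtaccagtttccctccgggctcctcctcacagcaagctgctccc
Inhbb: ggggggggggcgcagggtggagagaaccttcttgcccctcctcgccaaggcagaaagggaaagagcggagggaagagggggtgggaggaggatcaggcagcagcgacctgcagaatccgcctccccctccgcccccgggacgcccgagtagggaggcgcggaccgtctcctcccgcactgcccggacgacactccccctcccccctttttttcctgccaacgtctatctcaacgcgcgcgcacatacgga

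The windows are unlike in composition. The Inhba window has 43.2% G and C bases and 3 CpG dinucleotides, and 19.0% of 32851 promoter windows of this length have a lower share of G and C. The Inhbb window has 68% G and C and 21 CpG dinucleotides, and 87.8% of windows have a lower share. Windows were found for 7 members and searched on both strands for short motifs. The HIF1 core ACGTG was found in Fstl3 and Acvr1b, against 16.6% of all windows. The other HIF1 core, GCGTG, was found in Inhba, Acvr1b, Acvr2a and Acvr2b, against 28.2% of all windows. The half-site of the steroidogenic factors SF1 and LRH1, AGGTCA, was found in Inha and Fstl3, against 14.0% of all windows. The SMAD box CAGACA was found in Fstl3, against 17.1% of all windows. The half-site TGACG of the cAMP response element, held by 17.8% of all windows, was found in 0 of the 7. The same was true of the forkhead core TAAACA, which 12.03% of all windows hold. The RefSeq start behind the Inha window lies 532 bases downstream of the GENCODE start, so the window lies inside the gene as GENCODE annotates it. A match says only that the letters are there.

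Inha (chromosome 1, 75507077 to 75510366, plus strand), the alpha subunit gene that defines inhibin, was the most abundant member in each library on the per-length TPM scale. Its normalised level in CPM was 2580.5 in the first cKO library and 651.6 in the second. The WT libraries, in the order of their numbers, held 1379.8, 4893, 10577, 42623, 28726 and 14738 CPM. The groups overlapped through WT replicate 1, and the 5 other WT libraries were above both cKO libraries. Inha was the row with the most reads of all in WT replicates 4, 5 and 6 and the next to most in WT replicate 3. It ranked 29 and 67 by reads in cKO replicates 1 and 2, and 44 and 14 in WT replicates 1 and 2.

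Mean Inha was 1616 ± 1364 CPM over the cKO libraries (SD, n = 2), against 17156 ± 15689.6 CPM over the WT libraries (SD, n = 6). The log2 fold change was -3.41 ± 1.33 (SE, unadjusted p = 0.0229, adjusted p = 0.375 in edgeR's quasi-likelihood test over 15102 genes). DESeq2 gave it an adjusted p = 0.00908. With cKO replicate 2 left out it was -2.83, and with cKO replicate 1 left out, -4.78.

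Inhba (chromosome 13, 16011851 to 16031621, plus strand) encodes the beta A subunit of activin A and inhibin A. It varied most widely of the 8 members tested. In CPM it measured 351 and then 61.5 in cKO, against 51.7, 93.5, 4846, 11052, 5939 and 2250.1 in WT, in the order of the library numbers. The cKO libraries lay among WT replicates 1 and 2 or above them, and far below WT replicates 3 to 6. Within WT the highest library was 214 times the lowest. Its mean was 206.3 ± 205 CPM over the cKO libraries (SD, n = 2), against 4039 ± 4198 CPM over the WT libraries (SD, n = 6), and the log2 fold change was -4.28 ± 1.80 (SE, unadjusted p = 0.0324, edgeR adjusted p = 0.380, DESeq2 adjusted p = 0.107). Among the libraries numbered 1 and 2 alone the sign turned, with a log2 fold change of 1.57 that did not pass. That subset had been chosen on earlier results, Inha and Inhba among them, so its small differences follow in part from the choice.

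Inhbb (chromosome 1, 119415465 to 119422248, minus strand) encodes the beta B subunit of activin B and inhibin B. In CPM it measured 924 and then 447 in cKO, against 569.8, 1556, 1999.7, 5761, 4023 and 3356 in WT, by library number. The 8 libraries stood in the same order as for Inha, and the spread was narrower, with 10.1 times between the WT extremes. The log2 fold change was -2.07 ± 0.86 (SE, unadjusted p = 0.0313, edgeR adjusted p = 0.380), with a DESeq2 adjusted p = 0.0496. WT replicate 1 lay between the cKO libraries, so the groups overlapped.

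The balance of the beta subunits was not the same in all libraries. Inhba took 27.5% of the reads on Inhba and Inhbb in cKO replicate 1 (95% Wilson interval 25.8 to 29.3%) and 12.1% in cKO replicate 2 (9.16 to 15.8%). In WT replicates 1 and 2 it took 8.31% (6.84 to 10.1%) and 5.67% (5.11 to 6.28%). In WT replicates 3 to 6 it took 70.8% (70.1 to 71.5%), 65.7% (65.4 to 66.1%), 59.6% (59.2 to 60.1%) and 40.1% (39.5 to 40.7%). Both cKO shares lay between these sets of WT libraries, above WT replicates 1 and 2 (where the intervals of cKO replicate 2 and WT replicate 1 overlapped) and below the others. The intervals cover counting error only, since reads were amplified without molecular identifiers. Shares of reads take no account of length, so they do not say which beta subunit RNA was the more abundant. On the TPM scale the ratio of Inhba to Inhbb was 1.03 and 0.293 in cKO replicates 1 and 2. In WT replicates 1 to 6 it was 0.194, 0.146, 5.76, 4.93, 3.64 and 1.62.

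The alpha subunit stood in a steadier proportion to its partners. On the TPM scale Inha was 4.43 and 3.64 times the sum of Inhba and Inhbb in cKO replicates 1 and 2, and 6.46, 8.70, 2.50, 3.99, 4.99 and 5.37 times in WT replicates 1 to 6. The cKO ratios lay inside the WT range on this scale. It uses deposited lengths, from 1648 to 1891 nt for the Inhba row, whose longest coding transcript in GENCODE M21 has 6390 nt. Per kilobase of the longest coding transcripts, the ratio of cKO replicate 2 was instead below that of each WT library. On the TPM scale the ratio of Fst to the same sum was 0.566 and 0.763 in cKO, and 1.32, 0.593, 0.259, 0.0669, 0.0740 and 0.217 in WT replicates 1 to 6. The cKO values were again inside the WT range, with WT replicates 3 to 6 below both. Per kilobase of the longest coding transcripts, WT replicate 3 was no longer below cKO replicate 1.

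**Figure D1:**
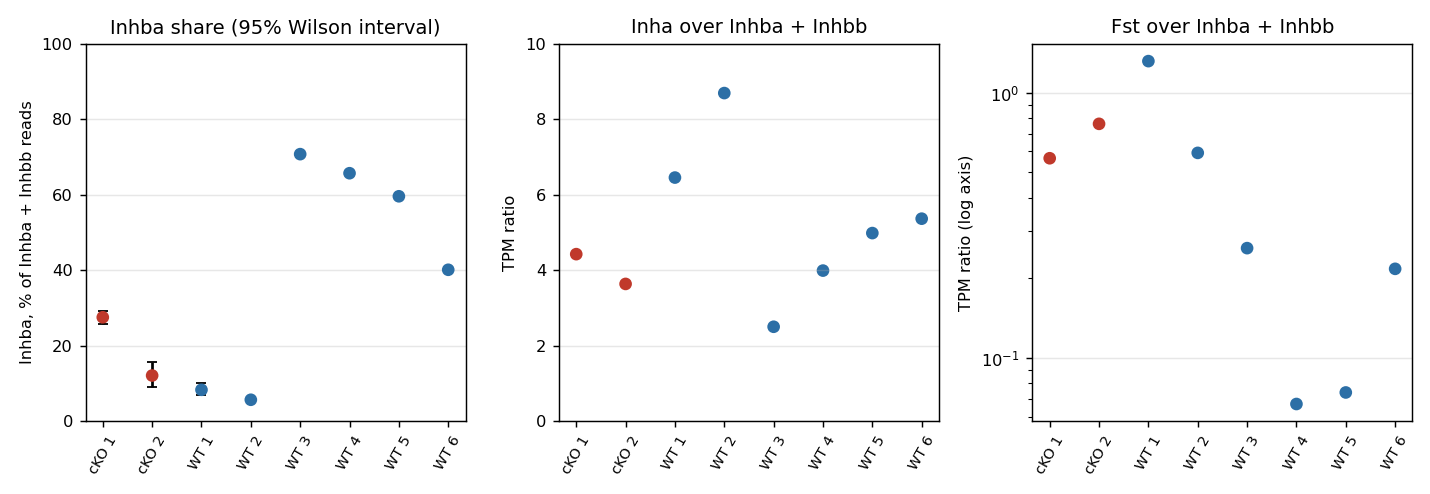
Balance of the inhibin and activin genes in each library (x axis: 2 cKO libraries in red, 6 WT libraries in blue): the percentage of Inhba among Inhba and Inhbb reads with its 95% Wilson interval, the TPM ratio of Inha to both beta subunits, and the TPM ratio of Fst to both on a log axis. The Inhba share was 27.5% and 12.1% in cKO and from 5.67% to 70.8% in WT, and the cKO points lie within the WT range in each panel.

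Fst (chromosome 13, 114452290 to 114458951, minus strand), the activin-binding protein gene, stood at 216.7 and 120.2 CPM in cKO, against 207.7, 312, 1011, 873, 549 and 637 CPM in WT, by library number. WT replicate 1 lay inside the cKO range, and the 5 other WT libraries lay above it. Averaged, Fst reached 168 ± 68.2 CPM in cKO (SD, n = 2), against 598 ± 311 CPM in WT (SD, n = 6), and the log2 fold change was -1.82 ± 0.67 (SE, unadjusted p = 0.0166, edgeR adjusted p = 0.369, DESeq2 adjusted p = 0.0495). Fstl3 (chromosome 10, 79777272 to 79782630, plus strand), the other activin-binding member, was hardly detected. It had 0 and 1 reads in cKO and 0, 6, 1, 5, 0 and 18 reads in WT replicates 1 to 6, did not pass the filter on low counts, and was not tested. No fold is given for it, as the cKO counts lie under the limit of 3 reads.

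Acvr2b (chromosome 9, 119402118 to 119434995, plus strand) was the most abundant receptor gene of the members by TPM. By library number it stood at 68.5 and 20.5 CPM in cKO, against 47.3, 83.6, 69.02, 33.4, 24.5 and 47.6 CPM in WT. Of the WT libraries, 4 lay between the cKO values and 2 above them. The log2 fold change was -0.16 ± 0.56 (SE, unadjusted p = 0.775, edgeR adjusted p = 0.922), and it was 0.39 without cKO replicate 2. Acvr2a (chromosome 2, 48814109 to 48903269, plus strand), the other type II receptor gene, had only 10 and 1 reads in cKO and from 3 to 30 in WT. Its log2 fold change was -0.80 ± 1.07 (SE, edgeR adjusted p = 0.778), or -2.15 without cKO replicate 1 and -0.28 without cKO replicate 2.

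Acvr1b (chromosome 15, 101174067 to 101213684, plus strand), the type I receptor gene, did not follow the order of the ligand genes. It stood at 13.7 and 1.37 CPM in cKO, the lower value from 1 read, against 37.4, 30.6, 10.5, 10.4, 8.60 and 13.7 CPM in WT, by library number. The highest values were thus in the WT libraries where Inhba was lowest. The log2 fold change was -1.18 ± 0.88 (SE, edgeR adjusted p = 0.585), and it moved to -0.48 without cKO replicate 2 and -3.77 without cKO replicate 1, a size that rests on 1 read.

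Tgfbr3 (chromosome 5, 107106570 to 107289629, minus strand), the gene of the inhibin co-receptor betaglycan, stood at 19.3 and 24.6 CPM in cKO, against 17.03, 36.1, 26.9, 21.5, 25.4 and 11.6 CPM in WT, by library number. Both cKO libraries were inside the WT range. The log2 fold change was -0.083 ± 0.55 (SE, edgeR adjusted p = 0.963), close to the median of -0.077 over all genes, and its sign turned under several alternatives, DESeq2's size factors among them (0.063).

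**Figure D2:**
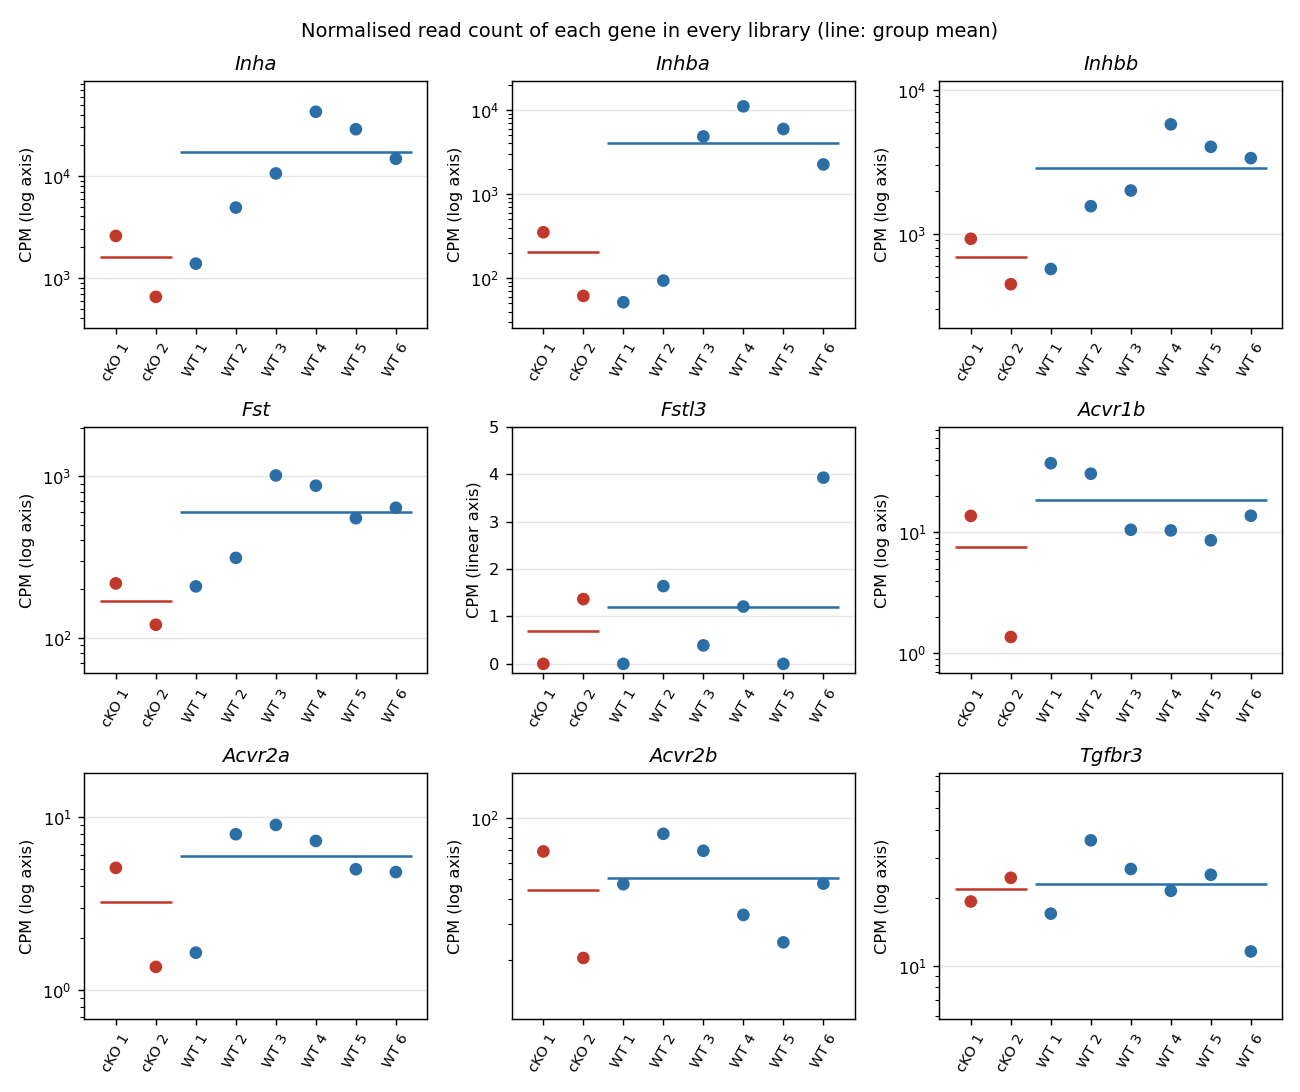
Normalised read count (CPM after TMM scaling) of the 9 genes in each library, cKO in red and WT in blue, on log axes except for Fstl3, with lines at the group means. Inha, Inhba, Inhbb and Fst are highest in WT replicates 3 to 6, with Inhba from 2250.1 to 11052 CPM there and from 51.7 to 351 CPM in the other 4 libraries, while Acvr2b and Tgfbr3 show no such step.

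Counted together, 8 of the 9 genes could be tested, and all 8 log2 fold changes were below 0, with a median of -1.50. Over all 15102 genes 52.7% were below 0, with a median of -0.077. In edgeR 0 of the 8 were called at an adjusted p under 0.05, and the background was 0% of all genes. At an unadjusted p under 0.05 there were 4, Inha, Inhba, Inhbb and Fst, all lower in cKO, where 8.89% of all genes were lower and 3.40% higher at that threshold. The members were chosen with earlier results of these data known, so their counts beside the shares of all genes are a description and not a test. No member had groups that did not overlap, against 6.41% of all genes that were lower and 6.02% that were higher with no overlap. DESeq2 gave an adjusted p to 5 members and called 3, Inha, Inhbb and Fst, where it called 3.81% of the 6646 genes given one. The limma-voom fit called 0, with the same 4 genes at an unadjusted p under 0.05. Without cKO replicate 2, 0 members had an unadjusted p under 0.05 in edgeR.

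Other measures moved with the libraries. The summed level of the 11 granulosa markers reached 1621 and 867 CPM in cKO, against 1413, 1832, 3406, 5103, 3993 and 2868 CPM in WT by library number, so it was highest where Inha and Inhba were highest. Fewer granulosa cells and less of these RNAs per cell cannot be told apart in such samples. All 7 stroma markers had reads in each library, and their sum was from 419 to 1312 CPM in cKO and from 36.9 to 1019 CPM in WT. The sum of 6 theca markers was from 143 to 292 CPM in cKO and from 161 to 745 CPM in WT, and WT replicate 6 had no read for Cyp17a1, Insl3, Gli1 or Fbln5. The sum of 6 endothelial markers was from 268 to 275 CPM in cKO and from 87.9 to 423 CPM in WT. The sum of 10 oocyte markers was from 30.1 to 52.3 CPM in cKO, where Dppa3 had no read, and from 7.02 to 1811 CPM in WT. Of these 10, from 7 to 8 had reads in a cKO library and from 5 to 10 in a WT library, with 5 in WT replicates 4 and 5. The sum of 6 blood and immune markers was from 46.4 to 238.5 CPM in cKO and from 14.8 to 218 CPM in WT. The part of these cell types in the differences was not tested. When the genes detected in a library entered as a covariate, 0 members had an unadjusted p under 0.05, and the SEs were larger. In that fit the log2 fold change of Hif1a, the targeted gene, went from -1.84 to -0.32 ± 0.90 (SE). Among the members the log2 fold changes were then -0.19 ± 2.02 for Inha, -0.22 ± 1.48 for Inhbb and -1.38 ± 2.54 for Inhba (SE). Those of Fst (-1.61 ± 1.19), Acvr1b (-1.29 ± 1.69) and Acvr2a (-0.83 ± 1.92, SE) stayed near their values without the covariate. Acvr2b moved to -1.03 ± 1.01 and Tgfbr3 to -0.38 ± 1.09 (SE). Since the groups did not overlap in detected genes, this measure and the genotype cannot be told apart. Transcripts of the mitochondrial genome took 8.87% and 10.5% of reads in cKO, above each WT library (1.42% to 3.65%). This share and the genotype therefore cannot be told apart either. With those genes left out 4 members again had an unadjusted p under 0.05 in edgeR. Leaving them out hardly changed the log2 fold changes (Inha -3.41, Inhba -4.28) and cannot test the part of this share.

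**Figure D3:**
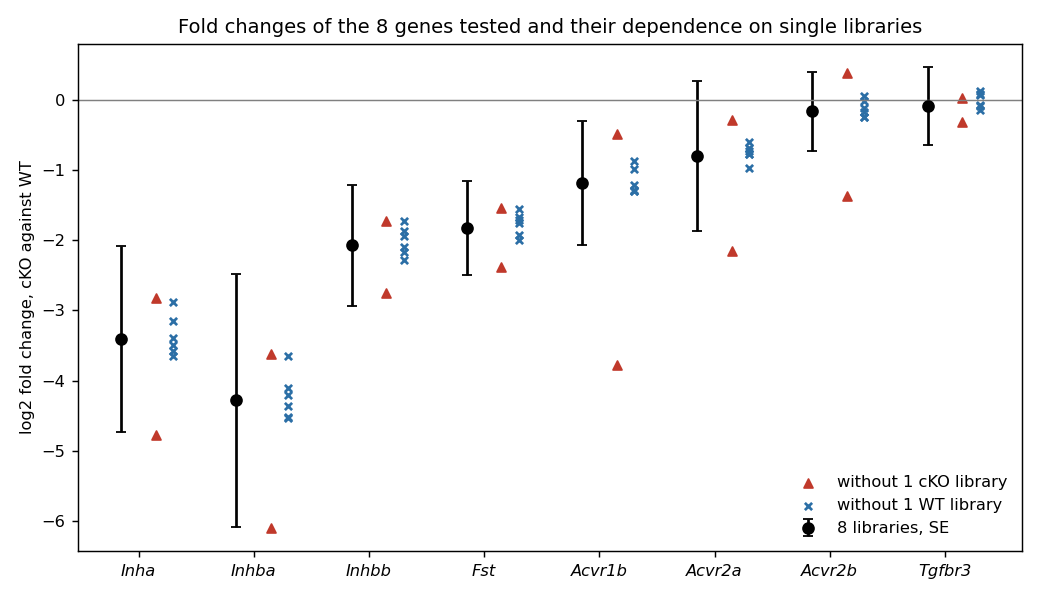
Log2 fold change of cKO against WT for the 8 genes tested (y axis), from all 8 libraries with its SE (black), without 1 cKO library (red triangles) and without 1 WT library (blue crosses). Inha, Inhba, Inhbb and Fst stay below 0 throughout, from -1.53 to -6.10, while Acvr2b and Tgfbr3 lie on both sides of 0.

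Levels can be set against each other between genes only per length. By mean TPM the order in cKO was Inha (1018 ± 700, SD, n = 2), Fst (152 ± 59.1), Inhbb (139.8 ± 40.3), Inhba (103 ± 99.6), Acvr2b (44.1 ± 38.0), Tgfbr3 (9.81 ± 4.84), Acvr1b (1.35 ± 1.45), Fstl3 (0.518 ± 0.733) and Acvr2a (0.467 ± 0.305). Fst, Inhbb and Inhba did not differ beyond their spread there, nor did Acvr1b, Fstl3 and Acvr2a. In WT the order was Inha (11559 ± 9912, SD, n = 6), Inhba (2152 ± 2135), Inhbb (607 ± 375), Fst (411 ± 267), Acvr2b (60.8 ± 36.01), Tgfbr3 (7.63 ± 6.10), Acvr1b (3.79 ± 2.60), Acvr2a (0.966 ± 0.453) and Fstl3 (0.756 ± 1.02). Inhba was above Inhbb in 4 of 6 WT libraries and Inhbb above Fst in 4 of 6, so these neighbours are not separated, whereas Inha was above the next gene in 6 of 6.

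The TPM of some rows depends on short lengths in the deposited tables. The length given for the Fst row was from 470.2 to 525.6 nt in cKO and from 515 to 665 nt in WT, under the shortest of the 6 Fst transcripts in GENCODE M21 (673 nt). That of Acvr2b was from 264 to 389.7 nt in cKO and from 286 to 532 nt in WT, also under the shortest annotated transcript (514 nt) in all libraries but WT replicate 6. That of Tgfbr3 was 920.4 and 824 nt in cKO, 771 and 642 nt in WT replicates 1 and 2, and from 1454 to 1522 nt in WT replicates 3 to 6. The Tgfbr3 row was thus longest in the libraries with high Inhba, where its CPM, from 11.6 to 26.9, overlapped that of the others. Per kilobase of the longest coding transcript instead, Fst had 59.5 CPM and Acvr2b 14.02 CPM on average in cKO, against 211 and 16.03 CPM in WT. On that scale Inhbb stood above Fst in both cKO libraries, and Inhbb (676) had a higher mean than Inhba (632) in WT.

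**Figure D4:**
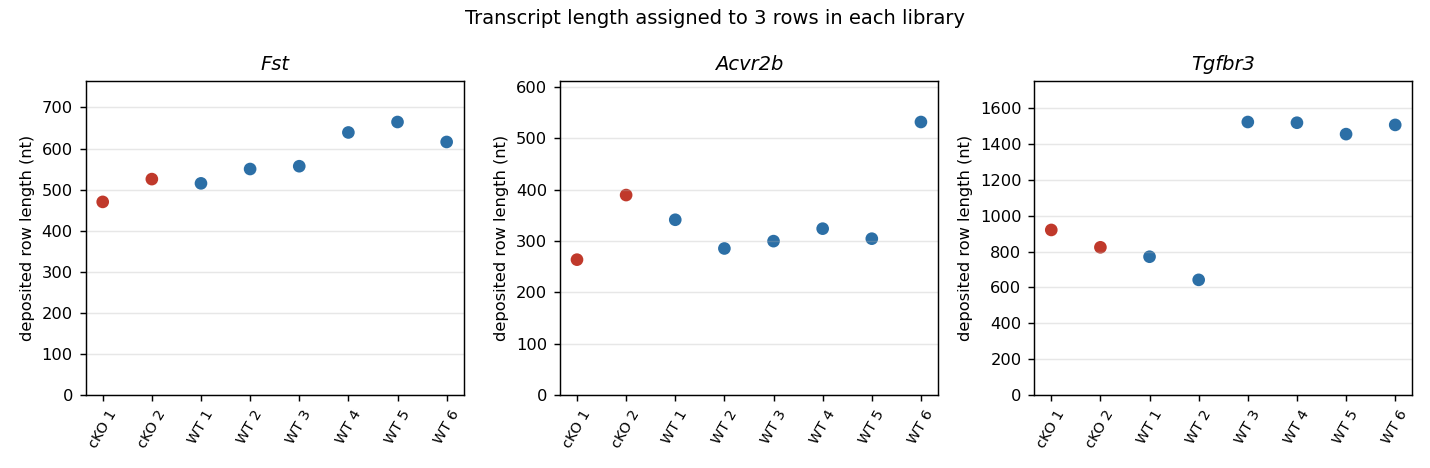
Transcript length in nucleotides (y axis) that the deposited tables give to the Fst, Acvr2b and Tgfbr3 rows in each library, cKO in red and WT in blue. Tgfbr3 is at 920.4 nt or below in both cKO libraries and WT replicates 1 and 2, and at 1454 nt or above in WT replicates 3 to 6.

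The library preparation does not mark strand, so reads from sequence that overlapping genes share cannot be assigned by strand. The overlaps given here are between whole gene bounds, introns included. Whether exons are shared was not looked at. In the annotation Inhba overlaps Gm48444 and B230303A05Rik, Fst overlaps Gm47040, Acvr2a overlaps Orc4, Acvr2b overlaps Gm47320, Fstl3 overlaps Prss57, Acvr1b overlaps Mir6962, and Tgfbr3 overlaps Gm43422, Gm43423, Gm8145 and Gm42900. Inha and Inhbb overlap no other gene.

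Of 27 other genes of the activin pathway, 23 could be tested, and Inhbc, Mstn, Tdgf1 and Igsf1 could not. Of the 23, 14 were below 0 and 9 above, and their median was -0.20 on the log2 scale. DESeq2 gave an adjusted p to only 11 of them and called 0, where it called 3.81% of the 6646 genes given one. In edgeR 0 of the 23 were called, against 0% of all genes. At an unadjusted p under 0.05 there were 2, both lower in cKO, Smurf1 and Smurf2, which encode ubiquitin ligases that act on SMADs and their receptors. That share is near the 8.89% of all genes that were lower at this threshold, and neither gene stayed under it with DESeq2's size factors (unadjusted p = 0.0518 and 0.0696 in edgeR) or with no TMM factor (0.0516 and 0.0667). Smurf1 stood at 9.64 and 13.7 CPM in cKO, against 13.2 to 48.4 CPM in WT, and came out at -1.45 ± 0.62 on the log2 scale (SE, edgeR adjusted p = 0.381). Smurf2 was at -1.28 ± 0.56 (SE, edgeR adjusted p = 0.388), and at -0.81 without cKO replicate 1. Smad2, a signal carrier of activin, had 8.63 and 12.3 CPM in cKO, below each WT library (14.04 to 35.2 CPM), and came out at -1.23 ± 0.64 (SE, edgeR adjusted p = 0.445).

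The genes with the smallest p above 0 were Acvr1c, Pmepa1 and Bambi. Acvr1c, another type I receptor gene, was at 2.61 ± 1.25 (SE, edgeR adjusted p = 0.415), but it rested on 24.6 CPM in cKO replicate 2, and the value was -0.51 without that library. Pmepa1, which encodes a SMAD-binding inhibitor, stood at 260.3 and 81.96 CPM in cKO, against 162.7, 89.7, 48.0, 24.7, 20.4 and 69.4 CPM in WT by library number. Its log2 fold change was 1.32 ± 0.66 (SE, edgeR adjusted p = 0.430), or 0.20 without cKO replicate 1. Bambi, which encodes a pseudoreceptor without a kinase domain, had 22.3 and 19.1 CPM in cKO, above each WT library (1.10 to 14.3 CPM), at 1.70 ± 0.89 (SE, edgeR adjusted p = 0.447). With no overlap between groups, 2 genes were lower, Smad2 and Pcsk5, and 2 higher, Bambi and Inhbe, so 4 of 23, against 12.4% of all genes. Pcsk5 and Inhbe were named after their values were seen.

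**Figure D5:**
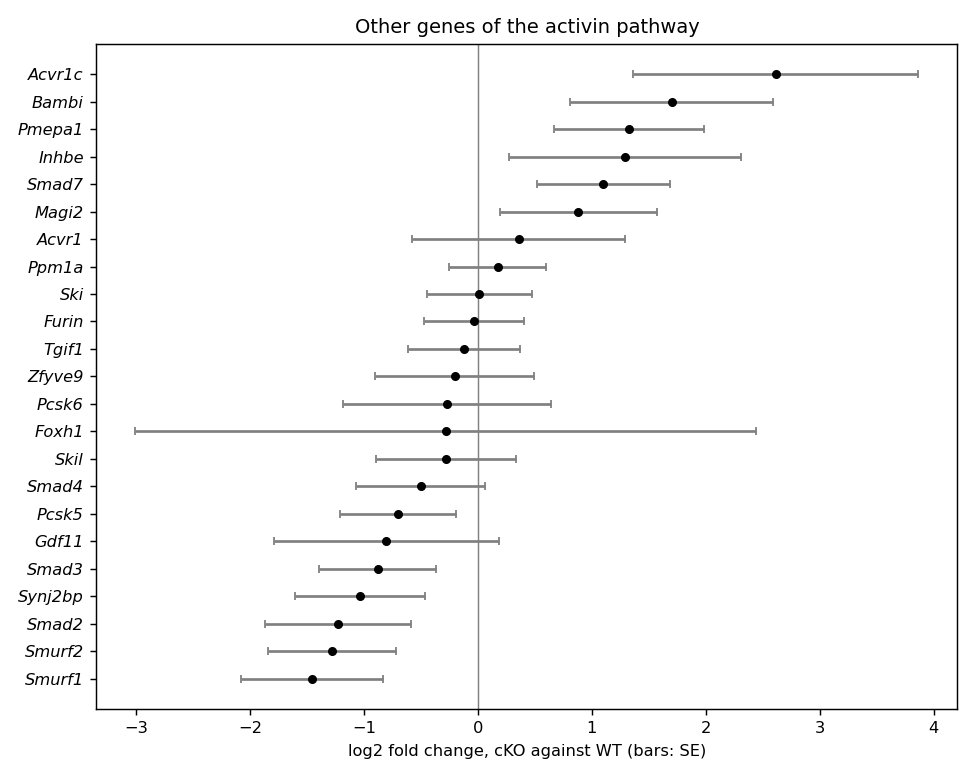
Log2 fold change of cKO against WT with its SE (x axis) for the 23 other activin pathway genes tested (y axis). The values run from -1.45 for Smurf1 to 2.61 for Acvr1c, and none passed the adjusted threshold in edgeR.

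The genes whose profile over the 8 libraries was nearest to each of 4 members were found as those with the smallest root mean square difference between log2(CPM + 1) values, each centred on its own mean, among 7563 genes of at least 20 CPM on average. For Inha these were Cyb5a (0.23), Mgst1 (0.40) and Fabp5 (0.41). Cyb5a, a cytochrome b5 gene, stood at 619 and 178 CPM in cKO, against 233, 1299.5, 2302, 7953, 5657 and 3004 CPM in WT by library number. For Inhba they were Mgarp (0.90), Hsd3b1 (1.05), a steroid-synthesis enzyme gene, and Kcne2 (1.20), at larger distances. For Inhbb they were Bsg (0.08), Pex19 (0.15) and Cnn3 (0.17), and for Fst they included Bmpr2 (0.25), a type II receptor gene for bone morphogenetic proteins, and Ext2 (0.26). Among the members, Inhbb was nearer to Fst (0.59) and Inha (0.76) than to Inhba (1.94). It was also nearer to Acvr2a (0.89), Tgfbr3 (1.36), Acvr2b (1.44) and Acvr1b (1.61) than to Inhba. The measure counts the size of variation, and the root mean square around the own mean was 2.99 for Inhba and 1.26 for Inhbb. The profiles share the libraries and their depth, and the likeness is a description.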

How the data were processed

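The authors deposited 1 table per library with estimated counts, TPM values and transcript lengths for 36635 rows. HISAT2, Salmon and the mm10 build appear in the submitters' processing notes with no version. Which annotation was used is not stated in them. Rows with a transcript identifier only (1548, from 0.435% to 0.739% of reads) were left out. Estimated counts, as deposited, were rounded to integers, and the deposited TPM were used for levels between genes.

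Genes were kept by filterByExpr (minimum count 10, minimum total 15), which left 15102, scaled by TMM and compared by edgeR 4.0.16 (glmQLFit, glmQLFTest, group as the only term, R 4.3.3) with Benjamini-Hochberg adjustment over all genes at 0.05. The SE was derived from the F statistic. DESeq2 1.42.0 and limma 3.58.1 were run as alternatives. Coordinates come from GENCODE M21, whose assembly (GRCm38) is that of mm10. On simulated counts of 15102 genes for this comparison, 13% of 100 genes changed 4-fold and 60% of 100 changed 16-fold were called, with 2 false calls.

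The genes and lists were chosen with earlier results of these data known. The 9 members are always named. Of the other pathway genes, those called are named, or, with none called, the 3 with the smallest p in each direction. The 3 genes nearest to each of Inha, Inhba, Inhbb and Fst are named, without Gm or Rik names, except that 1 gene near Fst is not reported here. The libraries differed beyond sampling noise in each pair (chi-square per degree of freedom from 13.0 to 99.5).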

Additional observations from a re-analysis of the deposited data

Results flagged for a closer look

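In 26 sets of 6 WT values, 4 held a library far from the others by Dixon's test at 95%. Chance gives this in about 1 set in 20 only for normally distributed values, which these sets need not be, so the rates cannot be compared. The summed oocyte markers were 1811 CPM in WT replicate 6, with the next highest library at 520.5 CPM. The summed endothelial markers were 423 CPM in WT replicate 1, with the next at 184 CPM. The deposited length of the Acvr2b row was 532 nt in WT replicate 6, with the next at 342 nt. That of the Acvr2a row was 2647 nt in WT replicate 5 and 2843 nt in the 5 others, so any differing value would have been flagged. None of the 9 genes was flagged by its CPM.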

How the results depend on the processing

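The count of 0 members called in edgeR became 1 with no filter (Inhba, adjusted p = 0.0014) and 3 with DESeq2, and was 0 under the other alternatives. Of all genes given an adjusted p, 0% were called in the main edgeR fit and 3.81% with DESeq2. No such share was counted for the other alternatives, so the call of Inhba with no filter has no background beside it. The count of 4 members at an unadjusted p under 0.05 became 2 with limma on log2(TPM + 1), 0 with detected genes as a covariate and 0 in the libraries numbered 1 and 2 alone. It ranged from 0 to 4 when single libraries were left out, with 0 only without cKO replicate 2. With the replicate number as a block it was 1 (Acvr1b), and the log2 fold change of Inhba was 1.09. The numbers are shared by only 2 libraries of each group, whose deviations from their group means correlated at -0.29 and -0.17 across genes. The deviations of the 2 cKO libraries mirror each other, so these values are not separate checks and can say little about pairing. Nothing shows that the numbers pair the libraries. Inhba reversed to 1.57 in the libraries numbered 1 and 2. Acvr2b reversed to 0.19 with limma-voom and ranged from -1.37 to 0.39 when single libraries were left out. Tgfbr3 reversed to 0.063 with DESeq2's size factors, 0.037 with no TMM factor, 0.15 with 10 reads in 6 libraries, 0.051 with DESeq2 and 0.52 with limma on log2(TPM + 1), and ranged from -0.31 to 0.13 when single libraries were left out. Acvr1c ranged from -0.51 to 3.51 in that way. The cause was not tested. The count of 0 other pathway genes called held under each alternative run. Inha, Inhbb, Fst, Acvr1b and Acvr2a kept a log2 fold change below 0 wherever they were fitted, but not its size. With the replicate block it was -1.001 for Inha, -0.55 for Inhbb and -0.65 for Fst, and in the libraries numbered 1 and 2 alone -0.87, -0.53 and -0.54. Under the block the group difference also comes only from the libraries numbered 1 and 2, so these 2 fits are not separate checks. That subset was chosen on earlier results, so the smaller sizes and the reversals of Inhba follow in part from the choice. Depth limits Acvr1b, Acvr2a and Fstl3 most, at 1 read each in cKO replicate 2.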
